A study of Mus musculus with 98 samples.

Results

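The immediate early genes described here are 9 mouse genes, chosen by name: Fos, Fosb, Junb, Egr1, Egr2, Nr4a1, Arc, Npas4 and Ier2. They are 9 of the 19347 mouse genes that have a row in both deposited tables of raw counts. Male FRGN mice of 10 weeks were studied, which are Fah-/-, Rag2-/- and Il2rg-/- on a background crossed with the non-obese diabetic strain. The Hu arm carried livers repopulated with human hepatocytes and the Mu arm, the control, livers repopulated with murine hepatocytes. In both arms the cells had been injected into the spleen, and both arms were kept on cycled nitisinone, sulfamethoxazole/trimethoprim antibiotic, dextrose water and a high energy diet. Nitisinone protects liver cells that lack Fah. The labels say that Hu mice above 70% repopulation were used, and all mice lacked B, T and natural killer cells. The comparisons therefore concern immunodeficient animals with a transplanted liver, and no untransplanted group was analysed here.

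RNA was sequenced from tissue labelled suprachiasmatic nucleus (SCN, 10 Hu and 12 Mu libraries), arcuate nucleus (10 and 12), skeletal muscle (15 and 12) and liver (15 and 12). Each arm was sampled at zeitgeber times (ZT, in hours) 2, 6, 10, 14, 18 and 22, with 1 to 3 libraries per arm and ZT. In the SCN and the arcuate nucleus the Hu arm had 1 library at ZT 6 and 1 at ZT 22. The light schedule is not stated, so ZT 2, 6 and 10 were taken as light and ZT 14, 18 and 22 as dark. Nothing in the labels says that libraries are separate animals, so p-values measure the spread between these libraries. In the text, arcuate nucleus stands for the tissue and Arc for the gene.

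Immediate early genes are transcribed within minutes of a stimulus from factors that are already present in the cell, without new protein synthesis. Calcium, cAMP and growth factor signals reach them through CREB at cAMP response elements and through SRF with its partners at CArG boxes. Light at night induces Fos and other members in SCN neurons, and feeding, fasting and handling induce them in the hypothalamus, liver and muscle. Fos, Fosb and Junb encode subunits of the dimeric AP-1 transcription factor. Egr1 and Egr2 encode zinc finger transcription factors, and Nr4a1 an orphan nuclear receptor that is also induced by exercise in muscle. Npas4 is a bHLH-PAS transcription factor induced in neurons by calcium entry. Arc is no transcription factor but a synaptic protein that promotes removal of AMPA receptors, and Ier2 encodes a small nuclear protein.

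Promoters of the members are shown first because the factors that induce immediate early genes are known to bind close to their starts. RefSeq windows of GRCm38.p6 were at hand for Fos, Fosb, Junb, Egr2, Nr4a1 and Npas4, 6 of the 9 members. The stretches of 4 members stand below, 5′ to 3′ on the gene's own strand, in front of the annotated start and with no annotated exon inside. Fos and Nr4a1 are the members that passed a test of light against dark in a brain region. Junb passed tests in muscle and liver. Of the 6 members with a window, Egr2 is the one with a CArG box in the 250 bases searched. The stretches are Fos chr12:85473740-85473889 (plus strand), Junb chr8:84978749-84978898 (minus strand), Nr4a1 chr15:101266696-101266845 (plus strand) and Egr2 chr10:67537719-67537868 (plus strand). Capitals mark TGACG or its reverse complement CGTCA, the core of the cAMP response element.
Fos: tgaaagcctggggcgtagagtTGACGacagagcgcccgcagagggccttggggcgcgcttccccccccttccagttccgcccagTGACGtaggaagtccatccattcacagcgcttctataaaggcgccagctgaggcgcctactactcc
Junb: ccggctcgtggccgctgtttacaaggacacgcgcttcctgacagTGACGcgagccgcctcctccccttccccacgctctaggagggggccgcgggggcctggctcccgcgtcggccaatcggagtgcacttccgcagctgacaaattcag
Nr4a1: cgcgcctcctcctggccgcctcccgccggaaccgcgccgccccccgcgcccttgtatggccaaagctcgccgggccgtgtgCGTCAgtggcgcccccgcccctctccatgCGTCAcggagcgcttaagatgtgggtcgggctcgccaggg
Egr2: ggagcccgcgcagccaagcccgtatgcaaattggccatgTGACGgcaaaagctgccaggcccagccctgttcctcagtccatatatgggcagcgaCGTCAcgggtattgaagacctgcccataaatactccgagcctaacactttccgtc

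Within the 250 bases before the start, TGACG was found on either strand in 8 of the 10 windows of the members, against 17.8% of 32851 windows of the same length from all genes. Egr2 has 5 of the 10 windows, for several annotated starts, and TGACG was found in 3 of them, which overlap, and in the 1 window of each other member. The match lay 129 and 66 bases before the start in Fos and 106 bases before it in Junb. It lay 69 and 40 bases before it in the printed stretch of Nr4a1, and 111 and 55 bases before the start behind the printed stretch of Egr2. The full palindrome TGACGTCA, which contains TGACG, was found in 0 of the 10 windows and in 1.55% of all windows. The CArG box, the SRF site, was found in 4 of the 10 windows, all of Egr2, and in 1.47% of all windows. The 3 overlapping Egr2 windows share 1 box, and 1 of the 6 members had a match. In the printed stretch of Egr2 this shared CArG box reads CCATATATGG, 72 bases before the start. The Egr site GCGNGGGCG was found in 2 of the 10 windows, of Fosb and Nr4a1, and in 4.70% of all windows. TATAAA was found in 1, that of Fos, 33 bases before the start, and in 12.4% of all windows. The AP-1 site TGANTCA was found in 0 and in 6.75% of all windows. The E-box CACGTG was found in 1, at an Egr2 start upstream of the printed stretch, and in 6.02% of all windows. These matches describe letters in the window, on both strands, and not binding.

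Total counts per library, in M (mega), were 25.5 to 34.9 M in the SCN, 23.7 to 47.1 M in the arcuate nucleus and 43.1 to 92.1 M in muscle. In liver, mouse genes took 97.1 to 118 M counts in Mu and 7.70 to 87.9 M in Hu. The region labels were checked against fixed markers, in a joint fit of both brain regions. Of 7 tested arcuate neuron markers, 7 were lower in the libraries labelled SCN, among them Agrp (log2 difference -3.64) and Pomc (-3.59). Of 8 SCN neuron markers, 1 was higher there (Prok2, 0.79) and 5 were lower, among them Six6 (-3.34), Lhx1 (-1.598) and Avp (-1.54). The transcription factor gene Six6 had a median of 0.784 CPM (counts per 1000000 mouse counts) in the libraries labelled SCN and of 9.07 CPM in the arcuate libraries. Muscle fibre markers summed to 70904 CPM or more in muscle and 5.87 CPM or less in the brain libraries. The SCN markers thus go against the SCN label, and those libraries are called SCN-labelled from here on. Their summed SCN neuron markers ranged from 46.0 to 433 CPM, with the highest sum in the second Hu library at ZT 2. Results that rest on that library are given without it as well.

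Levels below are CPM after TMM scaling within a tissue, and differences are log2 differences from edgeR, given with the SE. A gene is called when its Benjamini-Hochberg adjusted p over all genes tested in that tissue is under 0.05. In the SCN-labelled libraries, 2 of the 9 members were called between dark and light. Fos rose in the dark, 1.62-fold, and Nr4a1 fell, 1.32-fold. The other 7 members were not called, 6 of them with a negative estimate. Over all genes 3.55% were called (532 of 15006), 1.29% higher and 2.26% lower, so the members' count of 2 stands against a background of a few percent. The members' median difference was -0.21, beside -0.0033 over all genes tested. At an unadjusted p under 0.05 there were 3 of 9 members, beside 3509 of 15006 genes.

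Fos, the inducible AP-1 subunit, had 22.1 and 13.3 CPM in the SCN-labelled Hu libraries at ZT 2, 8.05 at ZT 6 and 5.02 and 6.96 at ZT 10. In the dark the Hu libraries had 16.04 and 16.6 CPM at ZT 14, 17.9 and 15.1 at ZT 18 and 13.9 at ZT 22. The Mu libraries had 14.98 and 11.5 CPM at ZT 2, 8.64 and 5.88 at ZT 6, 8.26 and 10.2 at ZT 10, 32.8 and 23.9 at ZT 14, 6.62 and 15.2 at ZT 18, and 12.7 and 10.5 at ZT 22. Low values thus lay at ZT 6 and ZT 10 in both arms and in 1 Mu library at ZT 18, and the 2 Mu libraries at ZT 14 were above all other libraries. Dark and light libraries overlapped, with 10 of 11 dark libraries above the light median of 8.64 CPM. The log2 difference between dark and light was 0.69 ± 0.15 (edgeR, adjusted p = 0.0258). It was 0.71 ± 0.23 in Hu and 0.67 ± 0.20 in Mu, neither called alone (edgeR, adjusted p = 0.544 and 0.0839), and the arms' difference was 0.04 ± 0.30 (adjusted p = 0.997). Within an arm 0.00666% of genes were called in Hu and 2.37% in Mu.

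The Fos call in the SCN-labelled libraries was lost without some single libraries or time points. The difference itself ran from 0.57 to 0.78 on leaving out each library. Leaving out 1 of 8 libraries moved edgeR's adjusted p above the threshold. These were the first Hu libraries of ZT 6 (0.0879), ZT 10 (0.0551) and ZT 14 (0.0555), the second Mu library of ZT 6 (0.0579), the first Mu libraries of ZT 10 (0.0561), ZT 14 (0.054) and ZT 22 (0.055), and the second Mu library of ZT 22 (0.0525). Without ZT 14 the difference was 0.46 (adjusted p = 0.152), without ZT 6 the adjusted p was 0.189 and without ZT 10 it was 0.128. Without the second Hu library at ZT 2, which had the high marker sum, the difference was 0.64 (adjusted p = 0.0331).

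**Figure D1:**
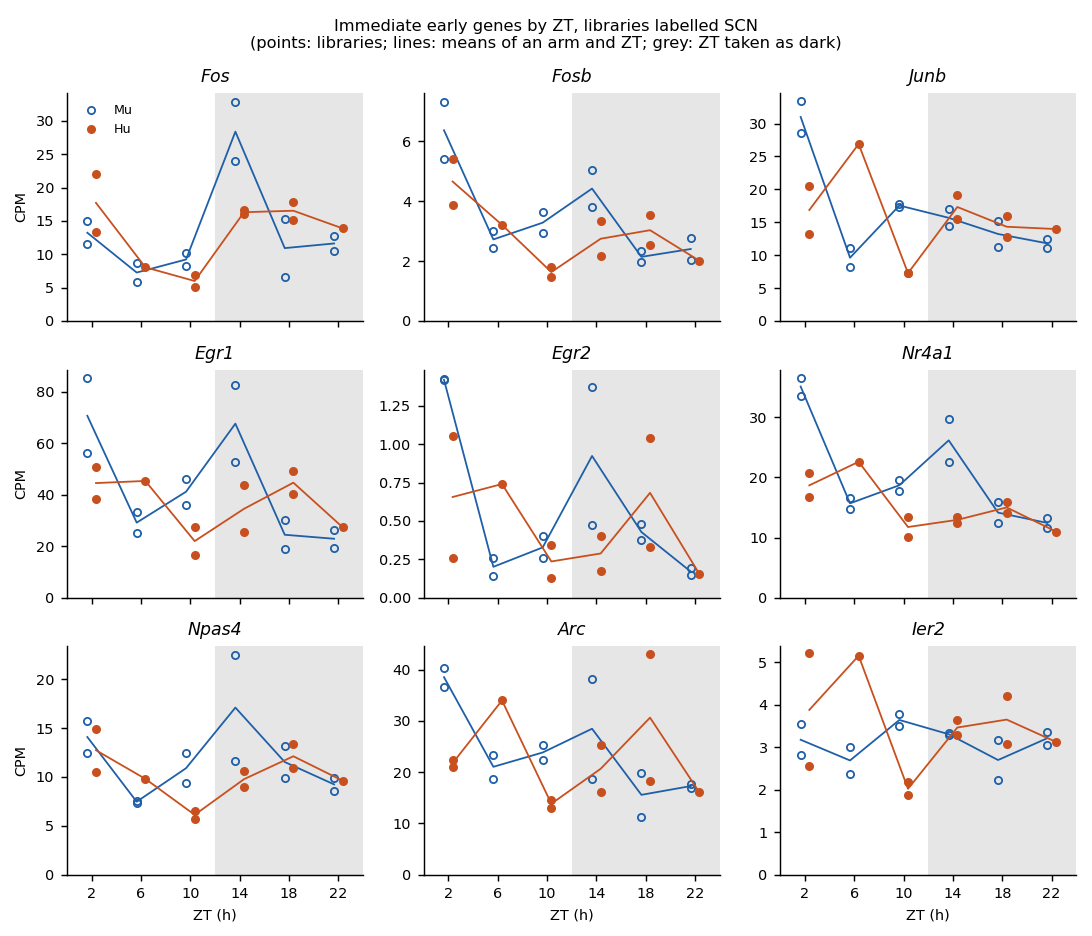
Levels of the 9 members in the SCN-labelled libraries, in CPM (y axis, from 0) by ZT in hours (x axis). Points are libraries, Mu open blue and Hu filled orange, lines join the means of an arm at each ZT, and grey marks the ZT taken as dark; Fos has its 2 top values in Mu at ZT 14 (32.8 and 23.9 CPM), whereas Fosb and Nr4a1 have theirs at ZT 2.

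Fosb, another Fos family subunit, had ZT means (average of the arm means) of 5.51, 2.96, 2.46, 3.58, 2.58 and 2.20 CPM from ZT 2 to ZT 22 in the SCN-labelled libraries. At ZT 2, 3 of 4 libraries lay above all others of that tissue, with 5.42 CPM in Hu and 5.40 and 7.32 in Mu. Its level thus had its high values in the light at ZT 2. Fos had its highest ZT mean at ZT 14 (22.3 CPM, beside 15.5 at ZT 2), which came from Mu. In Hu the top Fos library was also at ZT 2 (22.1 CPM). The dark minus light difference was -0.31 ± 0.13 and was not called (edgeR, adjusted p = 0.166). Without ZT 2 it was 0.04.

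Junb, the AP-1 partner subunit, had 33.4 and 28.6 CPM in the Mu libraries at ZT 2 and 13.2 and 20.6 in the Hu libraries. The lone Hu library at ZT 6 had 26.9 CPM and the Mu libraries 11.03 and 8.21. The remaining SCN-labelled libraries lay between 7.23 and 19.1 CPM. High values were thus found at ZT 2 in Mu and in 1 Hu library at ZT 6, and the call between dark and light was missed (-0.17, edgeR, adjusted p = 0.298). Junb overlaps Prdx2 on the other strand, and whether the counting used strand is not given in the sources used here. Junb counts may therefore include reads of Prdx2, here and in the arcuate nucleus, muscle and liver.

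The zinc finger genes had their highest ZT mean at ZT 2 in the SCN-labelled libraries. Egr1 had ZT means of 57.6, 37.3, 31.6, 51.1, 34.6 and 25.1 CPM from ZT 2 to ZT 22. Its single libraries ranged from 16.7 CPM in Hu at ZT 10 to 85.2 in Mu at ZT 2, and a Mu library at ZT 14 reached 82.5. Egr1 thus had high values both early in the light and just after the dark onset, and its dark minus light difference was -0.21 (edgeR, adjusted p = 0.436). Egr2 lay near the detection limit, at 0.128 to 1.42 CPM and 4 to 43 counts per library. Its highest values were 1.42 and 1.42 CPM in Mu at ZT 2 and 1.37 in Mu at ZT 14, and the difference of -0.39 was not called (adjusted p = 0.543). At such counts the depth limits what could be detected.

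Nr4a1 had 33.6 and 36.6 CPM in the Mu SCN-labelled libraries at ZT 2, 16.6 and 14.8 at ZT 6 and 17.8 and 19.7 at ZT 10. In the dark Mu had 22.6 and 29.7 CPM at ZT 14, 12.3 and 15.96 at ZT 18 and 13.3 and 11.6 at ZT 22. The Hu libraries had 16.7 and 20.7 CPM at ZT 2, 22.6 at ZT 6, 10.0 and 13.5 at ZT 10, 12.4 and 13.5 at ZT 14, 15.95 and 14.1 at ZT 18, and 11 at ZT 22. The Mu libraries at ZT 2 were above all others, the groups overlapped, and 2 of 11 dark libraries exceeded the light median of 17.8 CPM. The difference was -0.40 ± 0.08 (edgeR, adjusted p = 0.0196), with -0.40 ± 0.12 in Hu (adjusted p = 0.544) and -0.39 ± 0.10 in Mu (adjusted p = 0.0652). The call was lost without the Hu library at ZT 6 (adjusted p = 0.126), without the second Mu library at ZT 22 (0.0518), and without ZT 2 (0.182), ZT 6 (0.0915), ZT 18 (0.0636) or ZT 22 (0.227). Without the second Hu library at ZT 2 the difference was -0.37 (adjusted p = 0.0268).

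Arc had ZT means of 30.1, 27.5, 18.8, 24.6, 23.1 and 16.7 CPM in the SCN-labelled libraries, and Npas4 of 13.4, 8.63, 8.51, 13.4, 11.8 and 9.42 CPM. The 4 libraries at ZT 2 lay above the median of the others for both genes. The top Arc value was 43.0 CPM in a Hu library at ZT 18, and its partner there had 18.3. The top Npas4 value was 22.5 CPM in a Mu library at ZT 14, beside 11.7 in the other. Neither was called between dark and light (Arc -0.22, adjusted p = 0.450, and Npas4 0.21, adjusted p = 0.329, edgeR). Ier2 ranged from 1.86 to 5.20 CPM with a difference of -0.02 (adjusted p = 0.931).

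A test of any difference among the 6 ZT called 1 of the 9 members in the SCN-labelled libraries, Nr4a1 (edgeR, adjusted p = 0.0203), where 0.18% of all genes were called. Fosb (0.0577), Fos (0.0584) and Junb (0.0584) came close to the threshold, and 7 of 9 members had an unadjusted p under 0.05, beside 2145 of 15006 genes. Nr4a1 had ZT means of 26.9, 19.1, 15.2, 19.6, 14.6 and 11.7 CPM, with a maximum at ZT 2 and a minimum at ZT 22. The call was lost without the Hu library at ZT 22 (adjusted p = 0.0555) and without either Mu library at ZT 22 (0.0617 and 0.0676). It was also lost without the second Mu library at ZT 2 (0.0558), the first at ZT 6 (0.0503) or the first at ZT 10 (0.0517), and without ZT 2 (0.109), ZT 10 (0.0597) or ZT 22 (0.0897). Without the second Hu library at ZT 2 the adjusted p was 0.0372. With replicate number as a block it was 0.0513.

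None of the 9 members was called between Hu and Mu in the SCN-labelled libraries. Over all genes 0.0% were called (edgeR, 398 genes at an unadjusted p under 0.05, 2 genes called by DESeq2). The smallest p of the members was that of Nr4a1, lower in Hu by -0.36 ± 0.08 (unadjusted p = 0.000485, edgeR, adjusted p = 1.0), and 7 of 9 estimates were negative. The dark minus light differences of Hu and Mu were also not told apart for any member. There, 0.0% of genes were called (492 at an unadjusted p under 0.05, none by DESeq2). For Fos the difference between the arms was 0.04 ± 0.30 and for Nr4a1 -0.02 ± 0.16, and Junb had 0.39 ± 0.19 (edgeR, adjusted p = 0.985). Summed macrophage and microglia markers were 172 to 257 CPM in Mu in the light, 145 to 196 in Mu in the dark and 149 to 187 in Hu in the light. The summed SCN neuron markers were 57.0 to 180 CPM in Mu in the light and 84.3 to 433 in Hu in the light. Their part in the members' differences was not tested. In bulk tissue, fewer cells of a type and less RNA per cell cannot be told apart.

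In the arcuate nucleus none of the 8 tested members was called between dark and light, where 2.71% of all genes were called (409 of 15079). Fos came closest, with a difference of 0.57 ± 0.15, or 1.49-fold (edgeR, adjusted p = 0.0578). Its Hu libraries had 23.2 and 11.95 CPM at ZT 2, 7.86 at ZT 6, 7.43 and 8.32 at ZT 10, 18.5 and 16.7 at ZT 14, 12.1 and 13.8 at ZT 18, and 13.4 at ZT 22. Its Mu libraries had 13.4 and 10.7 CPM at ZT 2, 8.39 and 6.20 at ZT 6, 5.64 and 9.29 at ZT 10, 38.0 and 19.9 at ZT 14, 6.80 and 11.2 at ZT 18, and 10.1 and 9.54 at ZT 22. As in the SCN-labelled libraries, low values lay at ZT 6 and ZT 10 and in 1 Mu library at ZT 18, the top one was in Mu at ZT 14, and 10 of 11 dark libraries exceeded the light median of 8.39 CPM. DESeq2 called Fos (adjusted p = 0.00462), and edgeR did without the filter on low counts (0.0399), with the replicate block (0.0401), and without 1 of 4 libraries. These were the first Hu library of ZT 2 (0.0336), the Hu library of ZT 22 (0.0389), the second Mu library of ZT 14 (0.0192) and the first Mu library of ZT 18 (0.0444). It was called as well without ZT 2 (0.0267) or ZT 22 (0.0391).

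The first Mu library at ZT 14 had the highest arcuate value of 7 members, with 38.0 CPM for Fos, 43.4 for Egr1, 4.76 for Fosb, 27 for Junb, 12.4 for Npas4, 18.3 for Nr4a1 and 5.51 for Ier2. Several members were thus high together in 1 library whose partner had 19.9 CPM of Fos. Without that library the dark minus light difference of Fos was 0.48 (edgeR, adjusted p = 0.0832).

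**Figure D2:**
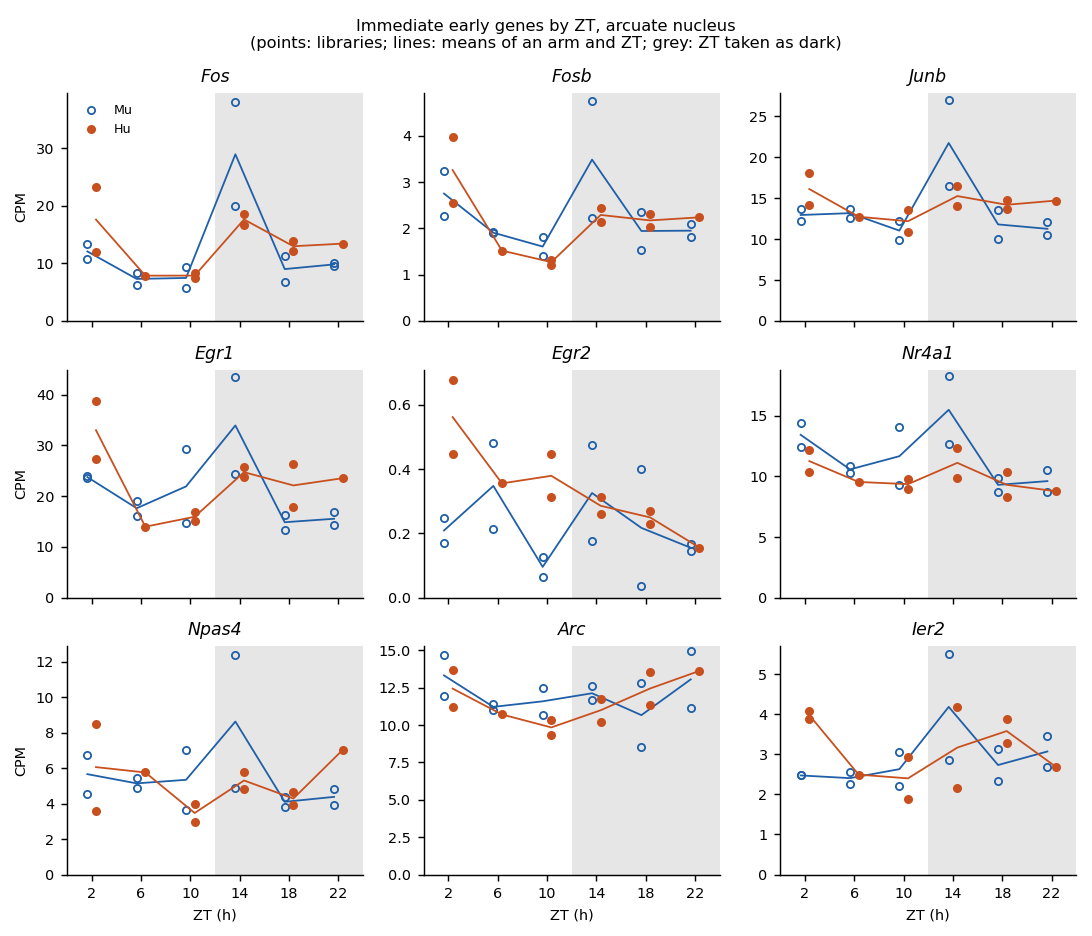
Levels of the 9 members in the arcuate nucleus, in CPM (y axis, from 0) by ZT in hours (x axis). Points are libraries, Mu open blue and Hu filled orange, lines join the means of an arm at each ZT, and grey marks the ZT taken as dark; 1 Mu library at ZT 14 stands above the rest in Fos (38.0 CPM) and in 6 other members.

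The arcuate test of any ZT difference called Fos (edgeR, adjusted p = 0.0319), 1 of 8 tested members, where 0.65% of all genes were called. Its ZT means were 14.8, 7.58, 7.67, 23.3, 10.99 and 11.6 CPM from ZT 2 to ZT 22. Leaving out 1 library lost this call for 12 of 22 libraries. They were, in Hu, both of ZT 10 (0.0823 and 0.0720), both of ZT 14 (0.0918 and 0.0585) and the first of ZT 18 (0.0562). In Mu they were both of ZT 2 (0.0614 and 0.0556), both of ZT 6 (0.0534 and 0.0680), the first of ZT 14 (0.0850) and both of ZT 22 (0.0605 and 0.0584). It was lost without ZT 6 (0.0749), ZT 10 (0.109) or ZT 14 (0.222), and with a cosine of 24 h in place of the ZT factor (0.497).

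The other arcuate members varied less by ZT. Egr1 had ZT means of 28.4, 15.8, 18.9, 29.3, 18.5 and 19.5 CPM, and Junb of 14.5, 12.9, 11.6, 18.5, 13.0 and 13.0. Nr4a1 had 12.4, 10.1, 10.5, 13.3, 9.31 and 9.20 CPM, and Fosb 3.01, 1.72, 1.44, 2.89, 2.06 and 2.10. ZT 2 and ZT 14 thus held the 2 highest means of Fos, Fosb, Junb, Egr1 and Nr4a1. Arc was flat, from 10.7 to 13.3 CPM, and Npas4 ranged from 4.20 to 6.97. Dark minus light was 0.24 for Fosb, 0.16 for Junb, 0.09 for Egr1, -0.07 for Nr4a1, 0.08 for Arc, 0.07 for Npas4 and 0.25 for Ier2, none of them called. Within an arm Fos had 0.50 ± 0.23 in Hu and 0.64 ± 0.20 in Mu, and no member was called, where 0.0% of genes were called in Hu (edgeR, 862 at an unadjusted p under 0.05, 17 called by DESeq2) and 2.52% in Mu. Egr2 was too low to test, at 1 to 19 counts per library. Between the arms no member was called, and 0.00663% of genes were; Nr4a1 had the smallest p, with -0.22 in Hu (unadjusted p = 0.0299, edgeR, adjusted p = 0.993). No member's dark minus light difference was told apart between the arms, where 0.0% of genes were called (edgeR, 671 at an unadjusted p under 0.05, 1 called by DESeq2).

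Levels of 5 of the 8 members tested in both brain regions were higher in the SCN-labelled libraries than in the arcuate nucleus. Npas4 was higher 1.99-fold, Arc 1.90-fold, Egr1 1.76-fold, Nr4a1 1.58-fold and Fosb 1.42-fold. Of all genes, 73.4% were called in this comparison and 36.7% were called higher, so calls between the regions were common among all genes. Npas4 had 5.69, 10.2 and 22.5 CPM (lowest, median and highest of 22) in the SCN-labelled libraries and 2.96, 4.84 and 12.4 in the arcuate ones. Arc had 11.3, 20.5 and 43.0 CPM against 8.54, 11.5 and 14.96, and 19 of the 22 SCN-labelled libraries lay above all arcuate ones. The ranges of every member overlapped between the regions. The log2 differences were 0.99 ± 0.12 for Npas4, 0.93 ± 0.10 for Arc, 0.82 ± 0.11 for Egr1, 0.66 ± 0.06 for Nr4a1 and 0.51 ± 0.10 for Fosb (edgeR, adjusted p at most 8.97e-05).

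For Arc, Egr1, Npas4 and Nr4a1 the SCN-labelled mean was above the arcuate mean in 12 of 12 combinations of arm and ZT, and for Fosb in 11. Fos differed by 0.07 ± 0.11 (5.02, 13.0 and 32.8 CPM against 5.64, 10.98 and 38.0) and Ier2 by 0.16 ± 0.10, neither called. Junb differed by 0.15 ± 0.07 (adjusted p = 0.0568) and passed in 23 of 54 alternatives. Of the 2 members called between dark and light, Nr4a1 thus differed between the regions as well, and Fos was not called there. Summed neuron markers were 3111 to 4748 CPM in the SCN-labelled libraries and 2629 to 3300 in the arcuate ones, and 4 of 5 neuron markers were called higher in the former (Slc32a1, 1.04). Their part in the members' levels was not tested.

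Whether dark minus light itself differed between the regions was tested in the joint fit, in a contrast added after the data were seen, in which 0.0861% of genes were called. No member was called there. The largest negative estimates were those of Fosb (-0.55 ± 0.20, edgeR, adjusted p = 0.222), Nr4a1 (-0.33 ± 0.13, 0.236) and Junb (-0.33 ± 0.14, 0.278). For Fos, called in the SCN-labelled libraries and not in the arcuate nucleus, the difference between the regions was 0.12 ± 0.23 (adjusted p = 0.841), so its dark minus light was not told apart between them. That fit takes libraries of the same number in both regions as unrelated. With a block for arm, ZT and number, which leaves out the unnumbered Hu libraries of ZT 22, it was 0.12 ± 0.10 (adjusted p = 0.612), and no member was called.

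Set against exon length, the order of levels differed by tissue. In the SCN-labelled libraries the median was 8.32 CPM per kb for Egr1, 6.70 for Arc, 6.42 for Junb, 5.54 for Fos, 4.55 for Nr4a1, 2.47 for Npas4, 2.12 for Ier2, 0.476 for Fosb and 0.106 for Egr2. Junb led in the arcuate nucleus with 5.92 CPM per kb, before Egr1 (4.75) and Fos (4.67). The ranges of the first 5 members overlapped in both regions, so that their order is within the spread. Muscle was led by Nr4a1 with 28.5 CPM per kb and liver by Ier2 (17.5) and Junb (15.1). Npas4, a neuronal gene, had 0.217 CPM or less in muscle and 0.176 CPM or less in liver and was tested in neither.

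**Figure D3:**
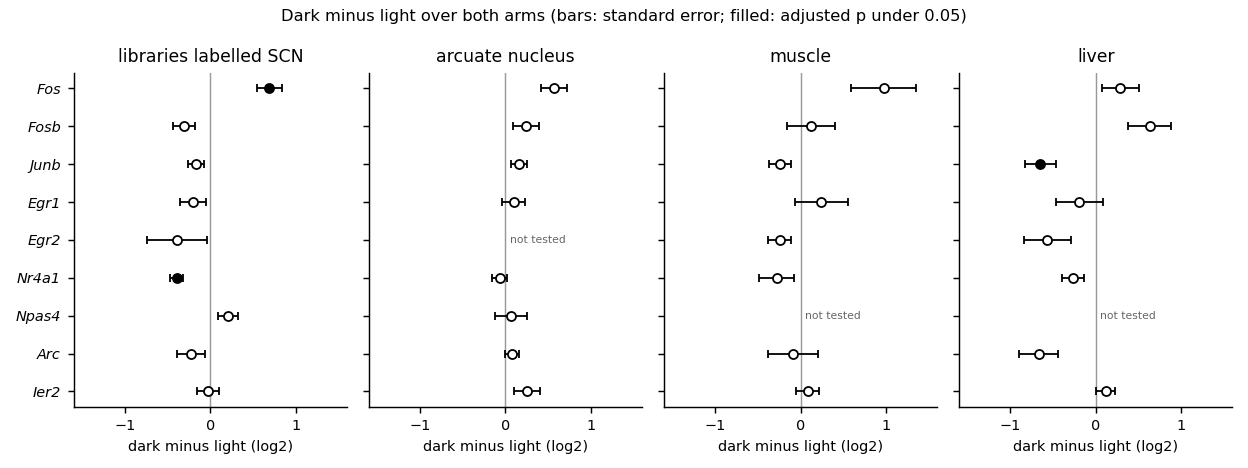
Dark minus light for each member in the SCN-labelled libraries, the arcuate nucleus, muscle and liver, as the log2 difference averaged over arms (x axis) with bars of 1 SE; filled points have an adjusted p under 0.05. Filled are Fos (0.69) and Nr4a1 (-0.40) in the SCN-labelled libraries and Junb (-0.65) in liver.

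In skeletal muscle no member was called between dark and light, where 3.73% of genes were called. Fos had the largest estimate, 0.97 ± 0.38 (edgeR, adjusted p = 0.190), with a wide spread of 1.48, 4.93 and 37.1 CPM (lowest, median and highest) in Hu and 1.90, 6.14 and 23.97 in Mu. A few libraries held the high values. The second Hu library at ZT 10 had the highest Fos (37.1 CPM), Egr1 (46.0) and Ier2 (12.7), and the first at ZT 14 had 31.9 CPM of Fos, 36.6 of Egr1 and 10.1 of Arc, which was at most 3.70 in the others. Within an arm Fos had 0.88 ± 0.51 in Hu and 1.06 ± 0.57 in Mu, and no member was called (0.669% of genes in Hu and 2.51% in Mu).

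Nr4a1 was the member of muscle that changed by ZT (edgeR, adjusted p = 0.0346, 3.65% of genes called). Its ZT means were 66.9, 119, 155, 150, 93.9 and 46.1 CPM from ZT 2 to ZT 22, within a range of 35.2 to 250 CPM. The maximum lay around the change from light to dark, and the ZT 22 libraries were low, at 35.2 to 64.8 CPM. Since ZT 10 and ZT 14 fall on either side of that change, dark minus light was small and not called (-0.28 ± 0.21). The call was lost on leaving out 1 of 14 of 27 libraries, with adjusted p from 0.0528 to 0.0979, as it was without ZT 2 (0.117), ZT 10 (0.0757) or ZT 22 (0.202). The 14 were, in Hu, the second of ZT 2, the second of ZT 10 and both of ZT 22, and, in Mu, both of ZT 2, ZT 6, ZT 10 and ZT 22, the second of ZT 14 and the first of ZT 18. Red blood cell markers were high in 1 muscle library, the first Hu library at ZT 6 (9675 CPM, against 699 or less in Mu), and without it the adjusted p was 0.0264. With the replicate number as a block it was 0.0617, above the threshold.

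Between the arms Junb was the called member of muscle, 1.45-fold higher in Hu (0.54 ± 0.13, edgeR, adjusted p = 0.00814), where 24.6% of all genes were called and 12.2% were called higher. Its levels were 6.6, 11.3 and 29.5 CPM (lowest, median and highest) in Hu and 4.90, 8.12 and 14.8 in Mu, and 13 of 15 Hu libraries exceeded the Mu median. The arms were furthest apart at ZT 14, with 14.2 and 29.5 CPM in Hu and 4.90 and 5.97 in Mu. Without ZT 14 the difference was 0.25 (adjusted p = 0.197), and with arm and ZT as additive factors it was 0.49 (0.0793), not called in either. Without the second Hu library of ZT 14 it was 0.44 (0.0195), and without the first Hu library of ZT 6 it was 0.53 (0.0107). As 1 of 8 members, the count did not exceed that background. Macrophage markers summed to 21.9 to 55.4 CPM in Hu and 13.5 to 43.9 in Mu, and endothelial markers to 177 to 333 and 264 to 403. Their part was not tested. No member's dark minus light differed between the arms (0.0141% of genes called); Arc had the largest estimate, 1.48 ± 0.59 (adjusted p = 0.411).

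In liver 8 of the 8 tested members differed between the arms, where 78.0% of all genes were called, 41.7% higher and 36.3% lower. Mouse counts alone were used, so the values concern the mouse cells of the liver, and the human copies were not analysed here. The Mu livers had received murine hepatocytes, so their mouse counts include transplanted cells, which those of the Hu livers do not. Arm and origin of the mouse cells thus cannot be told apart. Arc was higher in Hu 6.74-fold, Egr2 3.97-fold, Fosb 3.72-fold, Fos 3.09-fold, Junb 2.23-fold, Egr1 2.01-fold and Nr4a1 2.01-fold. Ier2 went the other way and was 1.40-fold lower. The members' median difference was 1.39, beside 0.07 over all genes.

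Fos had 1.43, 3.88 and 8.65 CPM of mouse counts (lowest, median and highest) in the Hu livers and 0.506, 1.17 and 3.37 in the Mu livers. Egr2 had 0.684, 1.86 and 3.76 CPM against 0.220, 0.416 and 2.14. Arc had 1.018, 3.29 and 4.79 CPM against 0.192, 0.4 and 1.016. For Arc the 15 Hu livers lay above the 12 Mu livers with no overlap, although the nearest values all but met. Of all genes tested in liver, 20.0% had no overlap between the arms and 7.52% had none with Hu higher. The ranges of the other 7 tested members overlapped. All 15 Hu livers exceeded the Mu median for Fos, Fosb, Junb, Egr2, Nr4a1 and Arc, 13 did for Egr1 and 0 did for Ier2. Ier2 had 16.8, 23.1 and 32.0 CPM in Hu and 22.1, 32.9 and 39.7 in Mu. The log2 differences were 2.75 ± 0.24 for Arc, 1.99 ± 0.29 for Egr2, 1.90 ± 0.26 for Fosb, 1.63 ± 0.23 for Fos, 1.16 ± 0.18 for Junb, 1.01 ± 0.28 for Egr1, 1.004 ± 0.13 for Nr4a1 and -0.49 ± 0.11 for Ier2 (edgeR, adjusted p at most 0.00325).

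**Figure D4:**
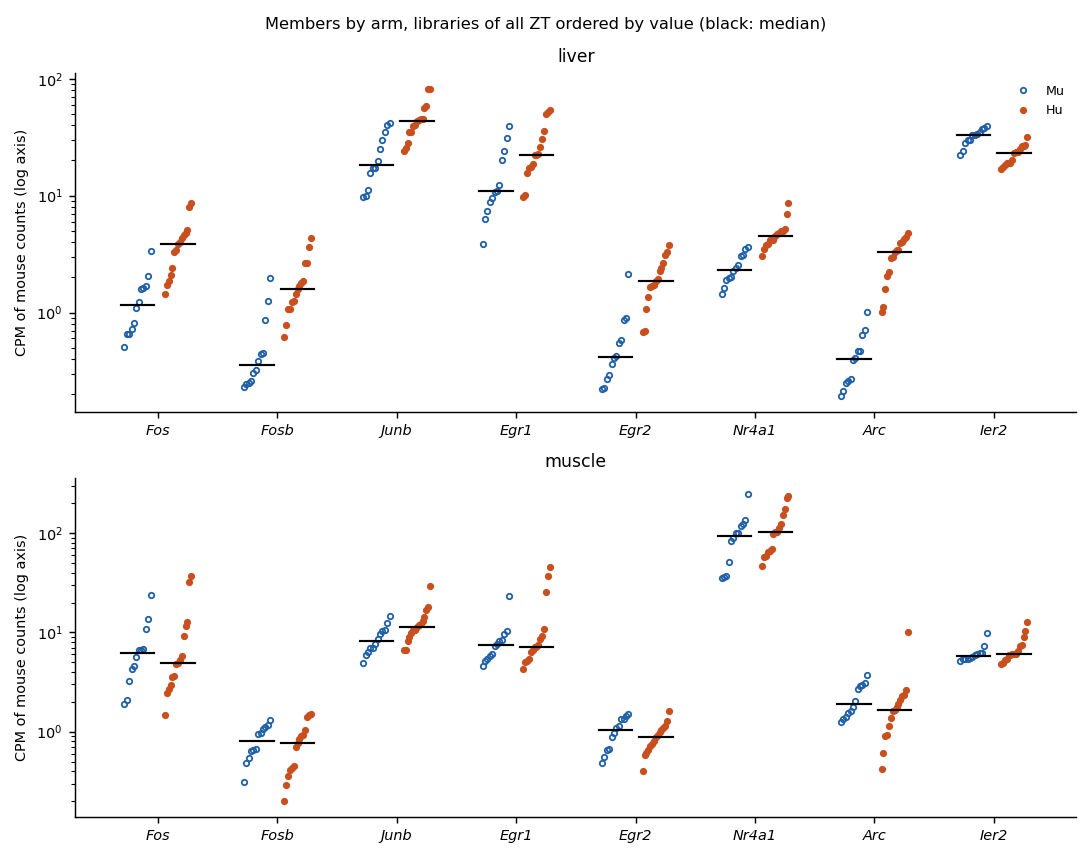
Levels of 8 members (without Npas4) in muscle and liver, in CPM of mouse counts on a log axis (y), for each library of Mu and Hu, ordered by value, with a black line at the median. In liver the 15 Hu values of Arc, from 1.018 to 4.79 CPM, lie above the 12 Mu values, and Ier2 is the member with the lower median in Hu (23.1 against 32.9 CPM).

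The composition of the Hu liver libraries differed widely. Human rows took 15.9% to 93.1% of the counts, with a median of 58.7%, and 11 of 15 Hu livers were at or under 70%, while the Mu livers had 0.0204% or less. This share of counts is not the share of cells that the labels state. Mouse hepatocyte markers summed to 7328, 53265 and 80229 CPM (lowest, median and highest) in Hu and 86236, 105419 and 117213 in Mu. Macrophage markers summed to 93.7, 168 and 508 CPM in Hu and 66.5, 81.8 and 109 in Mu, and endothelial markers to 141, 231 and 830 against 136, 155 and 177. As shares of mouse counts, the Hu livers thus held less hepatocyte marker RNA and, at the median, more macrophage and endothelial marker RNA. Their part in the members' differences was not tested.

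Scaling mattered. With library sizes over human and mouse rows together, the all-gene median difference moved from 0.07 to 0.48 and the share of higher calls from 53.5% to 84.0%, and Ier2 had -0.04 (edgeR, adjusted p = 0.893), no longer called. The other 7 members kept their direction and their call. Without ZT 14 Egr1 had 0.66 (adjusted p = 0.0531).

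Between dark and light 1 of 8 members was called in liver, Junb, which fell 1.57-fold in the dark (-0.65 ± 0.18, edgeR, adjusted p = 0.0319), where 8.73% of genes were called and 4.24% called lower. In the Mu livers Junb had 30.1 and 15.5 CPM at ZT 2, 25.04 and 34.8 at ZT 6 and 40.3 and 42.1 at ZT 10. It had 9.71 and 11.1 CPM at ZT 14, 19.6 and 9.89 at ZT 18, and 17.1 and 17.3 at ZT 22. The light values were thus highest at ZT 10, and the next sampled time, ZT 14, was among the lowest. Within Mu the difference was -1.14 ± 0.27, or 2.20-fold lower in the dark (edgeR, adjusted p = 0.00857, 17.9% of genes called, 8.54% lower). This call was lost in 2 of 38 alternatives, with adjusted p up to 0.0872. One of them was without ZT 10 (adjusted p = 0.0687). Within Hu the difference was -0.16 ± 0.24 (0.0267% of genes called). The arms differed by 0.98 ± 0.36, which was not called (adjusted p = 0.185, 0.641% of genes called).

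The averaged Junb call in liver was lost on leaving out 1 of 12 of 27 libraries, with adjusted p from 0.0502 to 0.0846. In Hu they were the third of ZT 2, the second of ZT 6, the first of ZT 10 and the first of ZT 22. In Mu they were the first of ZT 2, the second of ZT 6, both of ZT 10, both of ZT 14, the second of ZT 18 and the first of ZT 22. It was also lost without ZT 6 (0.0678), ZT 10 (0.227), ZT 14 (0.0564), ZT 18 (0.0869) or ZT 22 (0.0599), and with library sizes over all rows (0.069). No member was called for any ZT difference in liver, where 2.34% of genes were.

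Within an arm and ZT, members of the set were high or low in the same libraries, most in the arcuate nucleus. Pearson r was taken over the deviations of log2 CPM from the mean of the arm and ZT. For the arcuate nucleus, 28 of 28 pairs of members were positive over 20 libraries, with a median r of 0.60, where the median with all genes was 0.01. Fos and Egr1 had 0.85, Fosb and Junb 0.85 and Egr1 and Npas4 0.81. Of the SCN-labelled libraries, 27 of 36 pairs were positive with a median of 0.30. There Junb and Ier2 had 0.91, Fosb and Egr1 0.80 and Egr2 and Arc 0.75, and Egr2 and Ier2 had -0.54. Muscle had 25 of 28 positive pairs (median 0.43, Fos and Egr1 0.78) and liver 20 of 28 (median 0.20, Fos and Egr2 0.72), each over 27 libraries. The points share library and depth, and in groups of 2 the deviations are mirror images, so the 20 brain libraries hold 10 separate differences. These r values are descriptions.

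**Figure D5:**
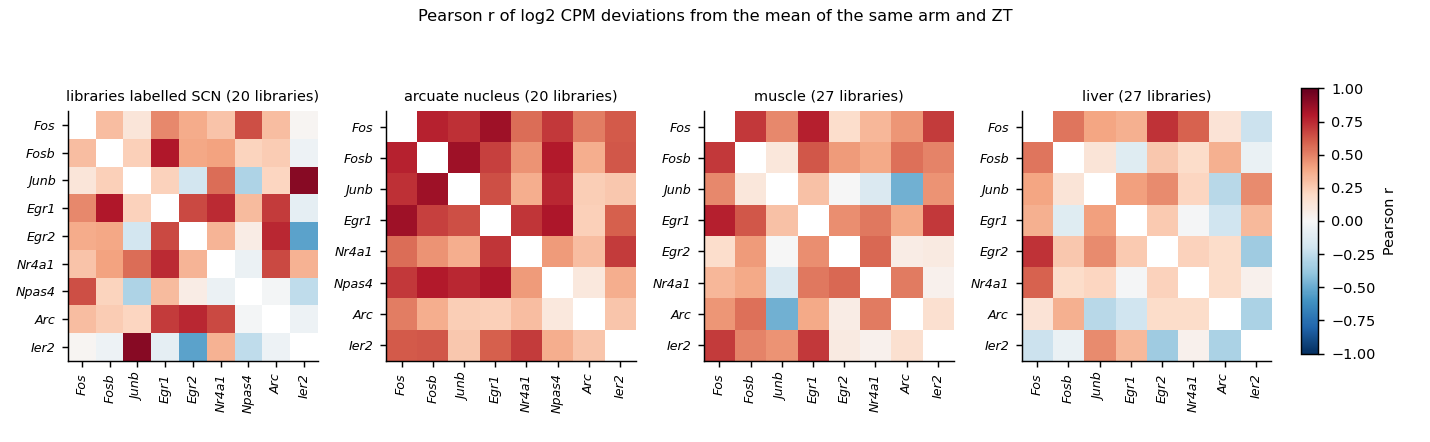
Pearson r between pairs of members, over the deviations of log2 CPM from the mean of each arm and ZT, in the SCN-labelled libraries and the arcuate nucleus (20 libraries each) and in muscle and liver (27 each). Colour gives r; all 28 arcuate pairs are positive, and 27 of the 36 pairs in the SCN-labelled libraries are.

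The 2 brain regions carry the same replicate numbers, although the labels do not say that a number marks a mouse. In the 10 combinations of arm and ZT with 2 libraries in each region, the differences between replicates were compared between the regions on a scale from -1 to 1. The similarity was 0.83 for Fos (same sign in 8 of 10) and 0.78 for Npas4 (7 of 10), followed by 0.40 for Arc and 0.17 for Egr1. It was near 0 for Ier2 (0.02), Fosb (0.10) and Nr4a1 (-0.10) and -0.19 for Junb. The median over all genes was 0.07. Libraries high in Fos in one region were thus mostly those of the same number that were high in the other.

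The genes whose pattern was most like the members' mean, over the 22 libraries of a region, included Btg2 in both regions. Those of the SCN-labelled libraries were Btg2 (r = 0.82), the Egr family gene Egr4 (0.81), Nab2, which encodes a corepressor of Egr proteins (0.77), Ppp1ca (0.77) and Sox21 (0.76). Those of the arcuate nucleus were Btg2 (0.87), Tmem234 (0.82), Evl (0.81), Arf5 (0.80) and Gm43738 (0.80). These libraries share their depth and their ZT with the members, and no test was made.

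Other genes of the pathway were followed in 3 fixed lists, of other rapid response genes, of delayed effectors and of the upstream relay. In the SCN-labelled libraries 1 of 28 rapid response genes rose in the dark and 2 fell, where 1.29% of all genes were called higher and 2.26% lower. The orphan receptor gene Nr4a2 rose (0.68 ± 0.17, edgeR, adjusted p = 0.0423), and Egr3 (-0.87 ± 0.20, 0.0328) and Egr4 (-0.89 ± 0.21, 0.0367) fell. Nr4a2 and Nr4a1, of one family, thus moved in opposite directions. Of 15 delayed effectors 1 fell, the kinase gene Plk2 (-0.46 ± 0.10, 0.0266), and 0 of 20 relay genes were called. The lists' medians were -0.05, 0.03 and -0.14. Nr4a2 was not called in 22 of 33 alternatives, Egr3 in 19, Egr4 in 18 and Plk2 in 15, and without the second Hu library of ZT 2 the adjusted p of Nr4a2 was 0.0529.

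In the arcuate nucleus, where 2.71% of all genes were called, 1 of 28 rapid response genes rose in the dark, Crem (0.24 ± 0.05, edgeR, adjusted p = 0.0243), which encodes a CREB family factor. None of 15 delayed effectors was called, and 1 of 20 relay genes rose, Creb1 (0.22, 0.0309). Muscle had 6 of 27 rapid response genes higher in the dark and 1 lower, where 3.73% of all genes were called, with a list median of 0.36 beside -0.01 over all genes. Among them were Nr4a3 (1.85 ± 0.44), Rgs2 (0.85), Jun (0.59) and Fosl2 (0.36), and Gadd45b was lower (-0.83). In liver, where 8.73% of all genes were called, 4 of 28 were higher in the dark, among them Dusp1 (0.86) and Jun (0.51), and Ccn1 was lower (-0.46). Muscle had 1 of 12 delayed effectors (Dusp5) and 1 of 17 relay genes (Creb1) higher. Liver had 3 of 11 delayed effectors (Homer1, Bdnf, Inhba) and 2 of 16 relay genes (Mrtfb, Creb1) higher, and 1 relay gene lower (Mapk3). These are averages over arms. The arms differed for Dusp1 (1.65 in Mu, Hu minus Mu -1.56), Jun (1.10 and -1.19), Inhba and Mrtfb, as given in the closing sections.

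Between the arms 0 of 28, 0 of 15 and 0 of 20 genes of these lists were called in both the SCN-labelled libraries and the arcuate nucleus. The mouse counts of liver had 78.0% of all genes called, 41.7% higher in Hu and 36.3% lower. There 21 of 28 rapid response genes were higher in Hu and 6 lower, with a median of 1.198, among them Maff (1.99), Klf6 (1.95), Myc (1.91), Atf3 (1.75) and Fosl2 (1.64). Of 11 delayed effectors 6 were higher, among them Ptgs2 (4.66) and the MAP kinase phosphatase gene Dusp4 (2.60), and 3 lower, led by Bdnf (-2.31). Of 16 relay genes 12 were higher, among them Mef2c (1.64), and 2 lower. The hepatocyte, macrophage and endothelial sums given above moved with this comparison too. In muscle 4 of 27 rapid response genes were higher in Hu, Myc (1.17), Gadd45g (0.74), Per1 (0.67) and Klf6 (0.27), and 0 were lower. This is near the 12.2% of all genes called higher there. Of 12 delayed effectors in muscle 1 was higher in Hu and 2 lower, and of 17 relay genes 1 was lower, where 24.6% of all genes were called. Between the brain regions 23 of 28, 10 of 15 and 14 of 20 genes of the lists were called, beside 73.4% of all genes.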

How the data were processed

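Total RNA of 98 libraries was isolated on RNeasy columns and made into libraries with a kit that keeps strand, per the labels' protocols. The authors deposited raw counts per gene in 2 tables, of liver (mouse and human rows) and of the other tissues. The submitters' processing notes name STAR and the builds GRCm38, mm10, GRCh38, hg38 and hg19 without roles, and the strand setting, annotation and filters are not given in the sources used here. In SCN and arcuate nucleus 1 Hu column at ZT 22 each was known by group alone. Mouse counts of each tissue were fitted with edgeR 4.0.16 (R 4.3.3) as a mean per arm and ZT, after filterByExpr by arm and TMM, with quasi-likelihood F tests and Benjamini-Hochberg adjustment over all genes. Both brain regions were also fitted jointly. CPM are counts over the TMM library size, and log2 CPM use a prior count of 2. Contrasts within an arm and between regions' dark minus light were added after the data were seen. DESeq2 1.42.0 and the other alternatives are in the closing section, and the fit was tested on simulated data.

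The members and lists were chosen with earlier results of these data known. Named are all members, the 5 genes most like the members per region, and markers. Of the other lists some called genes are named, from the 5 with the smallest p per list and comparison. Ptgs2 was named in addition, for the size of its difference in liver. Single libraries and time points that are named were chosen after their values were seen. Promoters came from RefSeq.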

Additional observations from a re-analysis of the deposited data

Results flagged for a closer look

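In the mouse counts of liver, dark minus light differed between the arms, by the interaction test of edgeR, for 4 genes of the pathway lists, none of them a member. The phosphatase gene Dusp1 differed by -1.56 ± 0.24 (Hu minus Mu, adjusted p = 0.0105), with 1.65 ± 0.18 in Mu alone. Jun, the AP-1 partner of Fos, differed by -1.19 ± 0.22 (0.0241), with 1.10 ± 0.17 in Mu. Inhba, which encodes an activin subunit, differed by -2.03 ± 0.38 (0.0241), with 1.66 ± 0.28 in Mu, and the SRF coactivator gene Mrtfb by -0.86 ± 0.19 (0.039), with 0.91 ± 0.14 in Mu. Dark minus light was thus more positive in Mu for these genes, and in Hu it was 0.0816 for Dusp1, -0.0837 for Jun, -0.37 for Inhba and 0.0434 for Mrtfb. Over all genes 0.641% were called. The call was missing in 4 of 38 alternatives for Dusp1, 12 for Jun, 13 for Inhba and 27 for Mrtfb, and with library sizes over all rows it was missing for all 4. Human rows took 15.9% to 93.1% of the counts of the Hu livers, whose mouse hepatocyte markers summed to 7328 to 80229 CPM, and the part of these in the differences was not tested.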

How the results depend on the processing

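The direction of Fos and Nr4a1 between dark and light in the SCN-labelled libraries held in all 33 alternatives run, and their calls did not. Counts of called members moved as follows, and the cause was not tested. The number of all genes called moved with the setting too, as given below for several settings. These counts are thus not results about the members. For dark minus light in the SCN-labelled libraries (2 called) the count was 0 with arm and ZT additive and without ZT 6, and 1 without ZT 2, 10, 14, 18 or 22. It was 0 to 2 on leaving out each library. With the additive model adjusted p was 0.0564 for Fos and 0.178 for Nr4a1. For any ZT difference there (1 called) it was 6 by DESeq2, 4 without the filter, 2 without ZT 18 and 0 with the replicate block, the additive model, the cosine, or without ZT 10 or 22, and 0 to 3 on leaving out each library. In the arcuate nucleus dark minus light (0 called) had 1 by DESeq2, without the filter, with the replicate block and without ZT 2 or 22, and 0 to 1 without each library. Any ZT difference (1 called) had 4 by DESeq2, 0 with the cosine or without ZT 6, 10 or 14, and 0 to 4 without each library. In muscle, dark minus light (0 called) had 1 without ZT 10, and 0 to 1 without each library. Any ZT difference (1 called) had 2 by DESeq2 and with the cosine, 0 with the replicate block and without ZT 2, 10 or 22, and 0 to 2 without each library. Hu minus Mu (1 called) had 0 with the additive model and 1 to 2 without each library. In liver, dark minus light (1 called) had 2 by DESeq2, 0 with the additive model, with library sizes over all rows and without ZT 6, 14 or 18, and 0 to 2 without each library. Any ZT difference (0 called) had 4 by DESeq2, 1 with the cosine, and 0 to 1 without each library. Hu minus Mu kept 8 of 8 without each library, and SCN minus arcuate 5 to 7.

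Signs turned for uncalled members. In the SCN-labelled libraries dark minus light became 0.0438 for Fosb, 0.12 for Egr2, 0.0501 for Egr1, 0.0843 for Junb and 0.0237 for Ier2 without ZT 2. It became 0.17 for Egr2 and 0.0236 for Egr1 without ZT 22, and 0.0676 for Ier2 without ZT 6. On leaving out each library Junb ran from -0.22 to 0.0425 and Ier2 from -0.0927 to 0.12. In the arcuate nucleus Nr4a1 became 0.0153, 0.0087 and 0.0186 without ZT 2, 18 and 22, Egr1 -0.0871 and -0.12 without ZT 6 and 14, Junb -0.0080 without ZT 14, and Npas4 -0.0635 and -0.10 without ZT 10 and 14 and -0.0188 with the replicate block. On leaving out each library Egr1 ran from -0.0246 to 0.19 and Npas4 from -0.0746 to 0.19.

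Over all genes, dark minus light in the SCN-labelled libraries called 532 genes, 1335 by DESeq2, 232 with the additive model, and 66 to 1874 on leaving out each library. Any ZT difference there called 27, 962 by DESeq2, 72 without the filter, 133 with the cosine and 13 with the replicate block. In the arcuate nucleus dark minus light called 409, 651 by DESeq2 and 813 with the replicate block, and any ZT difference 98, 479 by DESeq2 and 178 without the filter. In liver dark minus light called 1308, 2267 by DESeq2 and 178 with library sizes over all rows. Same-numbered Hu and Mu libraries had a correlation of deviations over 0.1 in 4 of 8 pairs (SCN-labelled), 6 of 8 (arcuate), 2 of 12 (muscle) and 7 of 12 (liver). The mean correlations were 0.12, 0.13, 0.02 and 0.12. Same-numbered SCN-labelled and arcuate libraries of an arm and ZT had a correlation over 0.1 in 12 of 20 pairs, with a mean of 0.14. Where both groups hold 2 libraries, both numbers give the same r. These pairs are then not separate values, and whether replicate numbers pair the arms was not settled. Low counts limit what could be detected for Egr2 in the brain, and for Npas4 in muscle (0 to 16 per library) and liver (0 to 7).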
